A study of Mus musculus with 12 samples.

Results

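The experiment described here asked how gene expression of mature B cells differed when Bax was deleted in mice that already lacked Bak1. It took 6 of the 12 libraries of the series, chosen by their labels. The 3 apoptosis-sensitive libraries came from Bak-/- Baxfl/fl mice, which carry a loxP-flanked Bax gene, and the 3 apoptosis-resistant libraries from Bak-/- BaxD/D mice, in which Bax is deleted. All 6 came from 10 week old C57BL/6 mice, and both groups shared the Bak1 deletion, so the comparison is of Bax in cells without Bak1. Cells were sorted from bone marrow as B220high, IgM+ and CD93-, a gate for mature B cells. The Cre driver that removed Bax, its timing and the cell types it acted in are not given in the sources used here, so the deletion may or may not reach beyond B cells. Resistant and sensitive replicates of the same number shared a collection date in 2016 (30 May for replicate 1, 31 May for replicate 2 and 7 May for replicate 3), and each such pair was compared within its date. The other 6 libraries, from young and old wild-type mice, helped to estimate the spread between libraries and are used below only for reference levels and for the contrast with age. Their labels give 24 March 2006 for replicate 1 and 11 and 12 April 2016 for replicates 2 and 3. They share no collection date with the Bak1-deficient libraries, so levels set against young wild type differ by date as well as by genotype.

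BAX and BAK are the pore-forming effectors of mitochondrial apoptosis. Either one suffices in most cells to open the outer mitochondrial membrane, release cytochrome c and start the caspase cascade, so cells that lack both resist most intrinsic death signals. The BH3-only proteins (such as BIM, PUMA and BMF) initiate this step, and the anti-apoptotic relatives of BCL-2 (such as BCL-2 and MCL-1) hold it back. Resting mature B cells are known to depend on BCL-2, MCL-1 and signals through the BAFF receptor for survival, and BIM is a principal initiator of their death.

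Total counts ran from 14785100 to 20760533 reads per library over the 6 libraries. Levels are given in CPM, read counts scaled to a common library size. Log2 CPM of libraries of 1 group correlated across genes between 0.963 and 0.991, and no such pair of libraries agreed within counting noise. The replicate 3 pair stood apart from the others in both groups, most visibly in immediate early genes, whose summed level was 2778, 2870.0 and 14486 CPM in sensitive replicates 1, 2 and 3 and 2641, 2627 and 5406 CPM in the resistant ones. All 8 defining B cell markers (among them Cd79a, Ms4a1 and Pax5) were expressed in every library, at a summed 18344 to 20275 CPM, with 0 of 8 called by edgeR, 1 of 8 at an unadjusted p under 0.05 and 0 of 8 by DESeq2. In bulk RNA, fewer cells of a kind and less RNA per cell cannot be told apart, and this holds for every gene group below.

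Bax mRNA was low in all 3 resistant libraries. It stood at 55.7, 56.3 and 100.1 CPM in sensitive replicates 1, 2 and 3 and at 4.97, 6.42 and 8.36 CPM in resistant replicates 1, 2 and 3, where 72, 106 and 175 reads remained. The groups did not overlap, and the resistant level was 9.31% of the sensitive mean (log2 fold change -3.40 ± 0.13, adjusted p = 2.20e-07). Here and below, the value after ± is the standard error of the fold change, n is 3 libraries per group, and adjusted p-values are from edgeR over all genes tested, with 0.05 as the threshold for a call. Bax lies at chr7:45461695-45466903 (GRCm38). Young wild-type cells, with both Bax alleles intact, held 98.6, 54.0 and 48.7 CPM, and the sensitive mean was 105% of theirs. Bak1, at chr17:27019812-27028627, carries the deletion that both groups share and did not pass the test between them (log2 fold change 0.18 ± 0.12, adjusted p = 0.480). Its reads amounted to 9.64, 12.5 and 6.17 CPM in sensitive and 10.8, 14.4 and 6.98 CPM in resistant libraries against 31.7, 40.8 and 47.9 CPM in young wild type. Sensitive cells thus held 23.5% and resistant cells 26.7% of the young wild-type Bak1 level, and which part of the transcript these reads cover is not shown by a count per gene. Bak1 overlaps Ggnbp1 in the annotation and counting by strand is not stated, so some of these reads may belong to its neighbour. Bok, the third effector, did not pass the filter on low counts.

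**Figure D1:**
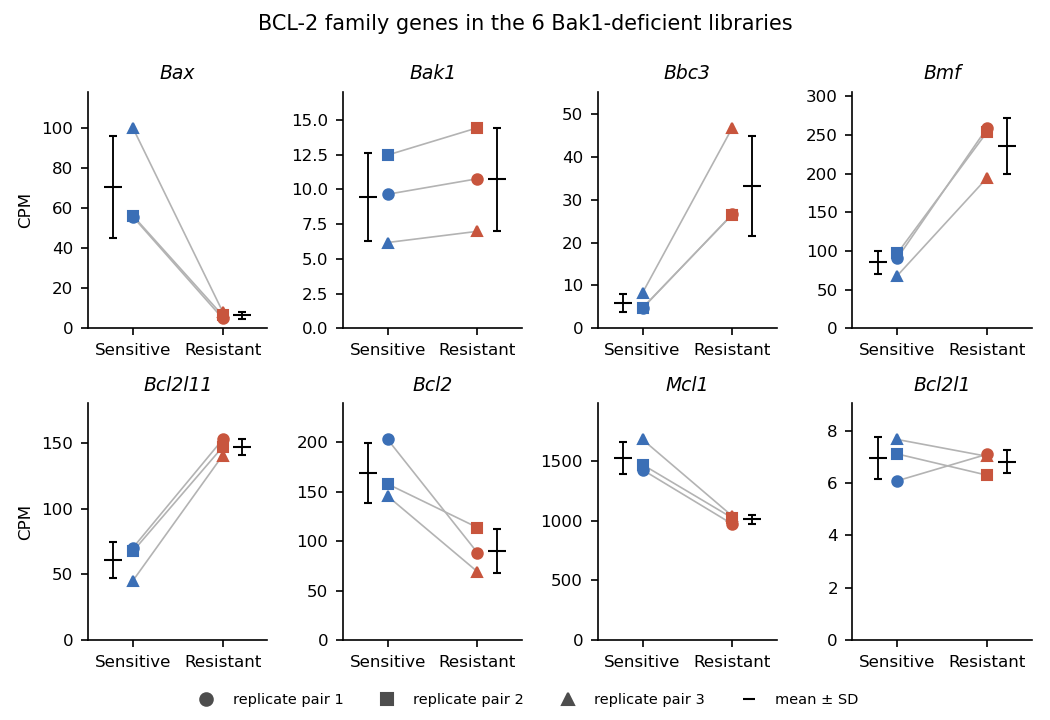
CPM of 8 BCL-2 family genes in the 3 apoptosis-sensitive (blue) and 3 apoptosis-resistant (red) libraries, with marker shape giving the replicate pair, grey lines joining libraries of the same collection date, and black bars the mean ± SD. Bax falls and Bbc3, Bmf and Bcl2l11 rise in each of the 3 pairs, Bcl2 and Mcl1 fall in each, and Bak1 and Bcl2l1 overlap between groups.

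Across all genes, Bax deletion went with more decreases than increases in the edgeR fit within dates. Of 13592 genes tested, 463 were called (3.41%), of which 195 were higher (1.43%) and 268 lower (1.97%) in resistant cells. An unadjusted p under 0.05 was reached by 2363 of the 13592 genes. Counts per list are to be read beside these shares. Decreases were also larger: the median log2 fold change was -1.10 among the genes called lower and 0.58 among those called higher, against -0.01 over all genes. A size of at least 1 on the log2 scale was reached by 150 of the lower and 63 of the higher calls. All 463 had the same sign in each of the 3 date pairs, which a test within 3 pairs nearly requires of a call. These calls rest on the comparison within dates: without the date term 6 genes passed (0.0441%), namely Bax, Wnt10a, Ccnd2, Trib3, Bbc3 and Atf5. All 463 kept their sign there, but this adds little. Each date holds 1 library of each group, so both fits give nearly the same fold change. DESeq2 with the date term called 695 genes (5.11%), 458 of the 463 among them. Its calls were split more evenly, at 338 higher and 357 lower. Leaving out 1 library also takes its date partner out of the comparison. With 2 pairs left, 130 to 175 genes were called, and 80 of the 463 passed in all 6 such fits. Below, a gene is said to hold where it passed in all 6, and the highest adjusted p of these fits is given where it did not.

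**Figure D2:**
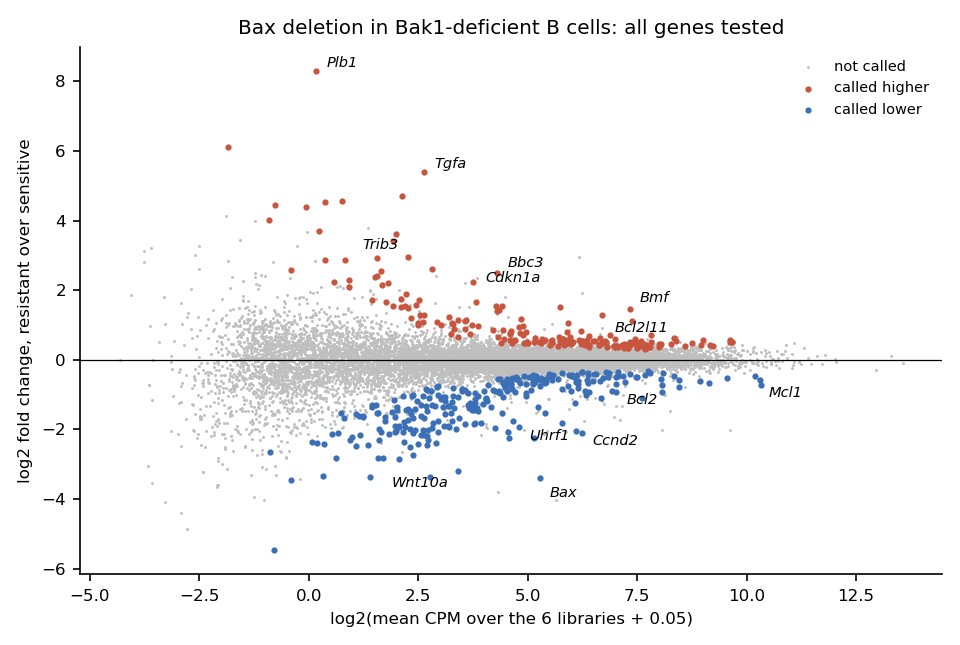
Log2 fold change of resistant over sensitive libraries for the 13592 genes tested, against log2 of the mean CPM over the 6 libraries plus 0.05. The 268 genes called lower (blue) include many of log2 -1 to -3 at low to middling levels, while most of the 195 called higher (red) lie between 0 and 1.

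Among the initiators of apoptosis, 3 of the 6 BH3-only genes tested rose and none fell by the test: Bbc3, Bmf and Bcl2l11. Bbc3, which encodes PUMA, a BH3-only protein and p53 target (chr7:16308398-16318334), measured 4.68, 4.76 and 8.28 CPM in sensitive and 26.6, 26.5 and 46.8 CPM in resistant libraries. Each resistant library was more than 3 times the highest sensitive one, and the fitted rise was 5.63-fold (log2 fold change 2.49 ± 0.19, adjusted p = 1.40e-04). Bmf, a BH3-only protein held on the cytoskeleton until stress frees it (chr2:118528757-118549686), was at 90.9, 97.1 and 68.2 CPM in sensitive and 259, 254 and 195 CPM in resistant cells. Its 3 pairs differed by nearly the same amount, 1.51, 1.39 and 1.51 on the log2 scale (log2 fold change 1.47 ± 0.09, adjusted p = 1.66e-05). Bcl2l11, encoding BIM (chr2:128126038-128162547), measured 70.3, 67.6 and 45.2 CPM in sensitive and 153, 147 and 141 CPM in resistant cells, so that even the lowest resistant library lay above all sensitive ones (log2 fold change 1.29 ± 0.15, adjusted p = 0.00192). All 3 held with any 1 library left out, and without the date term Bbc3 passed (adjusted p = 0.0395) while Bcl2l11 (0.100) and Bmf (0.195) did not.

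The remaining BH3-only genes did not pass. Pmaip1, which encodes NOXA, ranged over 30.6, 26.2 and 106 CPM in sensitive and 32.0, 37.2 and 65.4 CPM in resistant libraries, with the replicate 3 pair highest in both groups (log2 fold change -0.06 ± 0.23, adjusted p = 0.924). Bid had a log2 fold change of -0.22 ± 0.10 (adjusted p = 0.278) and Bad of -0.13 ± 0.17 (adjusted p = 0.768), and neither passed. Bik and Hrk did not reach the filter on low counts. The summed level of the 6 tested BH3-only genes was 518, 519 and 510.4 CPM in resistant against 254, 256 and 299 CPM in sensitive libraries. The list's median log2 fold change was 0.62 beside -0.01 over all genes. With 3 values above and 3 below 0, this median lies between the genes that rose and those that did not.

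On the anti-apoptotic side, 2 of 7 genes tested fell, Bcl2 and Mcl1. Bcl2, the founding survival gene of the family (chr1:106538176-106714290), measured 203, 158 and 145 CPM in sensitive and 88.2, 114 and 69.0 CPM in resistant cells, and the 2 groups did not overlap (log2 fold change -0.92 ± 0.13, adjusted p = 0.00373). Mcl1, whose short-lived product many lymphocytes require (chr3:95656944-95663179), fell from 1429, 1472 and 1683 CPM to 973, 1024 and 1040.3 CPM in replicates 1 to 3 (log2 fold change -0.59 ± 0.10, adjusted p = 0.0106). The Bcl2 call held with any 1 library left out. That of Mcl1 was lost in all 6 such fits, with an adjusted p of up to 0.118 without apoptosis-resistant replicate 3, and without the date term neither passed (adjusted p = 0.230 and 0.485). Bcl2l1, encoding BCL-XL, was at 6.09, 7.11 and 7.67 CPM in sensitive and 7.10, 6.30 and 7.02 CPM in resistant cells, and its groups overlapped (log2 fold change -0.03 ± 0.21, adjusted p = 0.962). Bcl2l2, encoding BCL-W, gave -0.10 ± 0.12 (adjusted p = 0.717). The 3 Bcl2a1 copies share near-identical sequence, so reads may be split between them. Bcl2a1b gave -0.51 ± 0.24 (adjusted p = 0.293), Bcl2a1d -0.28 ± 0.26 (adjusted p = 0.649), and Bcl2a1a stayed below 1 CPM in the 6 Bak1-deficient libraries. All 7 values were at or below 0, with a median of -0.28.

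Downstream of the mitochondrial pore, no difference passed. Of 16 genes for the apoptosome, caspases and their inhibitors, edgeR called 0 (0 at an unadjusted p under 0.05, and 0 by DESeq2), and all log2 values lay between -0.36 and 0.19. Casp2 measured 151, 131 and 106 CPM in sensitive and 143, 143 and 129 CPM in resistant cells, and Xiap, an inhibitor of caspases, 179, 217 and 119.6 CPM in sensitive and 202, 192 and 140.1 CPM in resistant cells. Of 17 genes of mitochondrial fusion, fission and outer membrane channels, 0 were called (3 lower at an unadjusted p under 0.05, and 0 by DESeq2). Phb2, a prohibitin of the inner membrane, gave -0.18 ± 0.09 (adjusted p = 0.294). The only one of 17 death receptor and necroptosis genes to pass was Fas, described with the p53 targets, beside 3.41% called over all genes.

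Targets of p53 also rose in part. Of 29 genes tested on that list, 8 rose and none fell by edgeR, and the groups did not overlap for 12 of the 29 (14.6% over all genes). DESeq2 called 8 higher and 2 lower, the latter being Plk3 (log2 fold change -0.97 ± 0.24, adjusted p = 0.0545 in edgeR) and Pidd1 (log2 fold change -0.66 ± 0.20, adjusted p = 0.121 in edgeR), named after their values were seen. The 8 that rose in edgeR were Bbc3, Cdkn1a, Phlda3, Zmat3, Psrc1, Cd80, Ccng1 and Fas. Cdkn1a encodes p21, an inhibitor of cyclin-dependent kinases that arrests cells in G1 (chr17:29090979-29100722). It measured 3.16, 4.41 and 6.78 CPM in sensitive and 20.4, 21.6 and 23.5 CPM in resistant libraries, so the lowest resistant library was about 3 times the highest sensitive one (log2 fold change 2.24 ± 0.28, adjusted p = 0.00220). Phlda3, a p53-induced inhibitor of AKT, rose from 0.282, 0.412 and 1.22 CPM to 7.10, 5.39 and 9.13 CPM (log2 fold change 3.60 ± 0.60, adjusted p = 0.0110). Zmat3, an RNA-binding zinc finger protein induced by p53, rose from 22.9, 26.5 and 12.2 to 37.9, 42.8 and 34.9 CPM (log2 fold change 0.97 ± 0.17, adjusted p = 0.0124). Trp53cor1, a long noncoding RNA transcribed next to Cdkn1a and known as lincRNA-p21, was nearly silent in sensitive cells, at 0, 0.0588 and 0.234 CPM, and measured 2.83, 1.70 and 2.68 CPM in resistant cells (log2 fold change 4.53 ± 0.77, adjusted p = 0.0140).

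The Cdkn1a promoter was searched for the p53 half-site by its letters alone. The stretch just before its start, from RefSeq in the GRCm38.p6 build, holds 2 matches to the p53 half-site, the 10-base unit that p53 binds as a pair, in capitals:
Cdkn1a, chr17:29090896-29090947, plus strand: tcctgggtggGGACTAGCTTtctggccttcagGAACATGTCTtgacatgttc
Capitals mark matches to a strict pattern of letters, and these 2 are not adjacent, so they are not shown to be a bound pair. A near match that departs from the pattern stays in lower case, such as the tgacatgttc directly after GAACATGTCT. Both strands were searched in the 300 bases from 250 before to 50 after each annotated start. A gene counted where any of its promoter entries held a match. A half-site was present in 8.36% of all 32851 promoters and 8.11% of the tested genes with an entry, in 8 of the 22 listed p53 targets that had a promoter entry, and in 2 of the 7 called ones with an entry. Binding was not measured.

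Over the whole p53 list the median was 0.14, beside -0.01 over all genes, and 23 of 29 values were above 0. Mdm2, the p53-induced ubiquitin ligase of p53, measured 123, 115 and 115 CPM in sensitive and 129, 131 and 127 CPM in resistant cells and did not pass (log2 fold change 0.14 ± 0.08, adjusted p = 0.437). It and Trp53 itself (log2 fold change -0.15 ± 0.12, adjusted p = 0.553) are named for their role and after their values were seen. Of the 10 regulators of p53, Mdm4, which restrains p53, rose (log2 fold change 0.44 ± 0.10, adjusted p = 0.0332), and Chek1, a checkpoint kinase expressed in S phase, fell (log2 fold change -1.47 ± 0.27, adjusted p = 0.0134). With 1 library left out, Bbc3 and Cdkn1a held. The other 6 called targets lost the call in at least 1 fit, with highest adjusted p-values of 0.0691 to 0.301, and so did Mdm4 (0.263 without apoptosis-sensitive replicate 3), Chek1 (0.144 without apoptosis-sensitive replicate 3) and Trp53cor1 (0.103 without apoptosis-resistant replicate 1). Among these genes Bbc3 alone passed without the date term, where Cdkn1a reached 0.0843 and Trp53cor1 0.155.

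Part of the integrated stress response, the programme that ATF4 drives when amino acids run short or proteins misfold, was higher in resistant cells. Of 30 genes tested, 4 rose (Trib3, Atf5, Slc1a4 and Pck2) and 1 fell (Psat1). Over all genes, 1.43% were called higher and 1.97% lower. Trib3, a pseudokinase induced by ATF4 and CHOP (chr2:152337425-152344060), stood at 1.13, 1.06 and 1.03 CPM in sensitive cells, a narrow range, and at 6.07, 9.27 and 9.99 CPM in resistant cells (log2 fold change 2.95 ± 0.32, adjusted p = 0.00118). Atf5, a transcription factor related to ATF4, measured 10.1, 10.8 and 8.65 CPM in sensitive and 24.0, 26.0 and 36.5 CPM in resistant cells (log2 fold change 1.53 ± 0.20, adjusted p = 0.00237), with Nup62 and Il4i1b overlapping it in the annotation. Slc1a4, a transporter of neutral amino acids, rose from 0.902, 1.06 and 0.748 to 6.83, 4.18 and 3.73 CPM (log2 fold change 2.40 ± 0.41, adjusted p = 0.0103). In the opposite direction, Psat1, an enzyme of serine synthesis, fell from 24.4, 22.9 and 40.2 to 14.8, 14.1 and 25.9 CPM (log2 fold change -0.68 ± 0.14, adjusted p = 0.0216). Atf4 mRNA itself did not pass (log2 fold change -0.22 ± 0.12, adjusted p = 0.361), nor did Ddit3, which encodes CHOP (log2 fold change -0.09 ± 0.19, adjusted p = 0.853); both were singled out after their values were seen.

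Some genes for enzymes that load amino acids onto tRNAs rose as well. Of the 21 genes tested on this list, which also holds Xpot, a tRNA export factor, 3 rose, beside 1.43% over all genes. Aars, for alanine, measured 70.5, 79.6 and 70.6 CPM in sensitive and 106, 108 and 105 CPM in resistant cells (log2 fold change 0.53 ± 0.09, adjusted p = 0.00811). Cars, for cysteine, had a log2 fold change of 0.59 ± 0.11 (adjusted p = 0.0115) and Iars, for isoleucine, of 0.41 ± 0.09 (adjusted p = 0.0316). The medians were 0.11 for this list and 0.19 for the stress response list, beside -0.01 over all genes.

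ATF4 and its partners are known to bind a composite element whose core reads TGATGNAA, where N is any base. Of the 7 stress response and synthetase genes that rose, 6 had a promoter entry and 5 of these held the core on either strand, against 8 of the 35 with an entry that did not rise, 3.97% of all promoters and 2.94% of the tested genes with an entry. The matches of 4 of these genes are shown in capitals with 10 bases on either side, and in these 4 the core lies on the strand opposite to the gene:
Trib3, chr2:152344029-152344056, minus strand: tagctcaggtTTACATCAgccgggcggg
Slc1a4, chr11:20332700-20332727, minus strand: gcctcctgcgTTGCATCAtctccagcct
Pck2, chr14:55540153-55540180, plus strand: gccttcaaagTTACATCAgtatcttaca
Iars, chr13:49682127-49682154, plus strand: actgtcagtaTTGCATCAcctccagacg
The genes were chosen for the match and the rise together, so the windows describe these promoters and test nothing. Trib3 and Iars hold the match just after the annotated start, Slc1a4 across it, and Pck2 before it. The match of the gene not shown, Aars (chr8:111033720-111033747 with flanks), lies before a start inside the annotated gene (chr8:111027778-111055569).

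Trib3 and Atf5 held with any 1 library left out and also passed without the date term (adjusted p = 0.0135 and 0.0449). The other 6 called genes of both lists lost the call in at least 1 fit, with highest adjusted p-values of 0.0900 to 0.241, the highest of these for Iars (0.241 without apoptosis-resistant replicate 3). Of 24 chaperones and sensors of the endoplasmic reticulum, 1 rose and 1 fell, beside 3.41% called over all genes. Eif2ak3, the stress kinase PERK, rose (log2 fold change 0.41 ± 0.09, adjusted p = 0.0311) and Pdia4, a disulfide isomerase, fell (log2 fold change -0.49 ± 0.11, adjusted p = 0.0315), and both calls were lost in all 6 fits with a library left out.

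Several heat shock chaperones were lower in resistant cells. Of 16 cytosolic and mitochondrial chaperone genes, 4 fell, and the list's median was -0.72. Hsp90ab1, a constitutive HSP90, measured 1524, 1700.4 and 1593 CPM in sensitive and 988, 918 and 1007 CPM in resistant cells (log2 fold change -0.73 ± 0.13, adjusted p = 0.0110). Hspa8, the constitutive HSC70, had a log2 fold change of -0.92 ± 0.18 (adjusted p = 0.0306). The chaperonin pair Hspd1 and Hspe1, which share a bidirectional promoter and overlap in the annotation, gave -0.61 ± 0.14 (adjusted p = 0.0372) and -0.57 ± 0.12 (adjusted p = 0.0233). The summed level of the list was 3303, 3279 and 3509 CPM in sensitive and 2113, 2003 and 2038 CPM in resistant libraries, without overlap, but 2008, 2040.3 and 2820.4 CPM in young wild type. All 4 calls were lost in every fit with a library left out (highest adjusted p-values of 0.0885 to 0.206), and without the date term their adjusted p-values were 0.848 to 1.0.

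**Figure D3:**
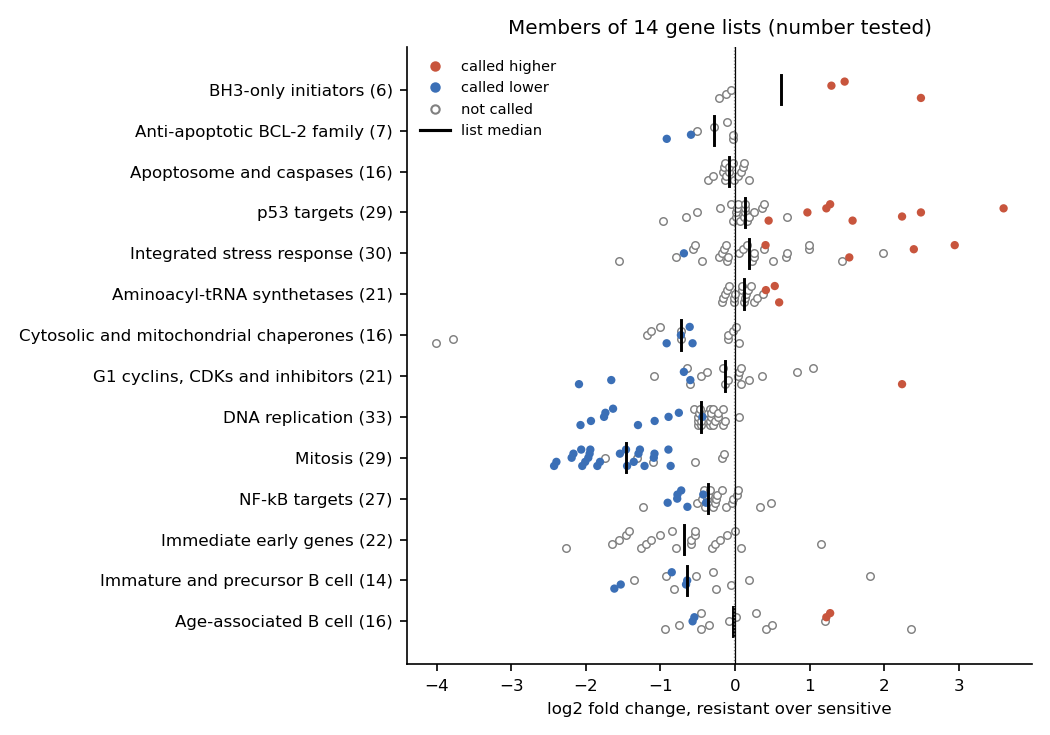
Log2 fold change of resistant over sensitive libraries for each tested member of 14 gene lists, with calls filled (red higher, blue lower), other members open and the list median as a black bar. BH3-only genes and p53 targets hold calls to the right of 0, and 23 of 29 mitosis genes and 10 of 33 replication genes are called to the left.

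Mitosis genes gave more decreases than any other list examined. Of 29 mitosis genes tested, 23 fell, all 29 had values below 0 in each of the 3 pairs, and the median was -1.46 beside -0.01 over all genes. The summed level of the 29 genes was 771, 419 and 889.9 CPM in sensitive replicates 1, 2 and 3, 216, 177.6 and 437 CPM in resistant ones and 659.7, 333 and 867 CPM in young wild type. Each resistant library was below its partner, while resistant replicate 3 lay above sensitive replicate 2, so the groups overlap without the dates. The gene with the lowest adjusted p on the list, Tpx2, activates Aurora A on the spindle. It measured 17.3, 10.3 and 27.5 CPM in sensitive and 3.59, 3.15 and 9.03 CPM in resistant cells (log2 fold change -1.85 ± 0.21, adjusted p = 0.00134). Bub1, a kinase of the spindle checkpoint, fell from 8.63, 5.23 and 14.1 CPM to 1.24, 0.788 and 3.58 CPM (log2 fold change -2.43 ± 0.28, adjusted p = 0.00134). Foxm1, the transcription factor that drives G2 and mitotic genes, fell from 25.7, 18.5 and 23.8 to 11.5, 9.58 and 10.7 CPM, and its groups did not overlap (log2 fold change -1.09 ± 0.13, adjusted p = 0.00166). Nusap1, which bundles spindle microtubules, had a log2 fold change of -1.81 ± 0.22 (adjusted p = 0.00185).

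Many late cell cycle genes carry a CCAAT box, bound by NF-Y, and a cell cycle homology region, written TTTGAA, which the DREAM and MuvB complexes read. Of the 29 mitosis genes, 24 had a promoter entry. TTTGAA was in 18 of these 24 (in 13 of the 18 called with an entry), against 17.9% of all promoters of the same length and 14.6% of the tested genes with an entry. CCAAT was in 20 of the 24 (15 of the 18 called), against 37.4% of all promoters and 43.2% of the tested genes with an entry, with both strands searched for each. The 100 bases before the start are shown for the 4 called genes of lowest adjusted p that hold both motifs there, each a core part of the division machinery: Kif11, a spindle motor; Cdk1, the mitotic kinase; Prc1, which bundles the midzone; and Top2a, which untangles DNA. Capitals mark CCAAT (or ATTGG on the opposite strand) and TTTGAA (or TTCAAA):
Kif11, chr19:37376282-37376381, plus strand: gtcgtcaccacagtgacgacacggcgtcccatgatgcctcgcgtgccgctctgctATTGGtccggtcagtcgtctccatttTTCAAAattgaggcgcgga
Cdk1, chr10:69352913-69353012, minus strand: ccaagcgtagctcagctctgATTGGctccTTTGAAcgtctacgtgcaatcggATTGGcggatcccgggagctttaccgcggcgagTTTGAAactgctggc
Prc1, chr7:80294376-80294475, plus strand: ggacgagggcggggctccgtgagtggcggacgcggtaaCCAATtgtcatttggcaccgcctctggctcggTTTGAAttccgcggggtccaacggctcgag
Top2a, chr11:99024190-99024289, minus strand: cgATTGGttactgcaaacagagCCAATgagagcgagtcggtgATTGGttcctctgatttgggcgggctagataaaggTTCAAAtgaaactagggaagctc
All 4 fell. Kif11 measured 44.5, 19.7 and 47.0 CPM in sensitive and 6.76, 4.36 and 17.6 CPM in resistant cells (log2 fold change -2.06 ± 0.23, adjusted p = 0.00217), and Top2a 114, 62.6 and 148 and 18.3, 14.2 and 54.5 CPM (log2 fold change -2.05 ± 0.28, adjusted p = 0.0168). The log2 fold change was -2.01 ± 0.33 for Cdk1 (adjusted p = 0.00829) and -1.46 ± 0.23 for Prc1 (adjusted p = 0.00855). The motifs are a description of the promoters, and no binding was measured.

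With 1 library left out, 11 to 16 mitosis genes were called, and Birc5, Bub1, Cenpf, Foxm1, Kif11, Kif23, Nuf2, Nusap1 and Tpx2 held. The other 14 lost the call in at least 1 fit, with highest adjusted p-values of 0.0524 to 0.279. Without the date term the 23 genes had adjusted p-values of 0.271 to 1.0, while DESeq2 with the date term called 25. Sensitive replicate 1 had the highest granulocyte and erythroid marker levels of the 6 libraries (below), and its pair had the deepest fall of the mitosis list, with median pair differences of -2.17, -1.28 and -1.24. Without that library the list's median was -1.15, and 11 of its genes were called. In pairs 2 and 3 the granulocyte (-1.35 and -0.97) and erythroid markers (-0.46 and -1.19) also had median pair differences below 0. The summed erythroid level of pair 2 went the other way, at 71.6 CPM in the sensitive and 98.5 CPM in the resistant library. Such markers remain in the comparison when sensitive replicate 1 is left out. The part of other marrow cells in the fall of mitosis genes was not tested.

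Some DNA replication genes fell as well. Of 33 tested, 10 fell, with a median of -0.46, and pair medians were -0.42, -0.30 and -0.53. Uhrf1, which brings DNA methylation to new strands, measured 47.4, 31.2 and 52.7 CPM in sensitive and 9.86, 8.67 and 16.1 CPM in resistant cells (log2 fold change -1.93 ± 0.16, adjusted p = 1.99e-04). Mcm10, which helps to fire origins, fell from 6.94, 3.70 and 10.3 to 0.690, 1.09 and 3.63 CPM (log2 fold change -2.07 ± 0.33, adjusted p = 0.00681). Rrm2, the regulated subunit of ribonucleotide reductase, had a log2 fold change of -1.76 ± 0.25 (adjusted p = 0.00861), and Chaf1a, of the chromatin assembly factor, of -1.30 ± 0.18 (adjusted p = 0.00356). These 4 held with any 1 library left out. The other 6 called genes did not (highest adjusted p-values of 0.106 to 0.313), 4 to 6 were called with a library left out, and none of the 10 passed without the date term (adjusted p from 0.100 to 1.0).

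Of 21 regulators of G1 tested, 5 were called: Ccnd2, Ccnd3, E2f1 and E2f2 fell and Cdkn1a rose. Ccnd2, encoding cyclin D2, the D cyclin that B cell receptor signals are known to induce (chr6:127125162-127152188), measured 136, 112.6 and 119 CPM in sensitive and 32.5, 25.8 and 28.0 CPM in resistant libraries. The fall was 4.26-fold and alike in all 3 pairs, at -2.06, -2.12 and -2.08 (log2 fold change -2.09 ± 0.22, adjusted p = 0.00373). Ccnd3, encoding cyclin D3, was at 105, 119.6 and 102 CPM in sensitive and 69.3, 69.9 and 76.0 CPM in resistant cells (log2 fold change -0.60 ± 0.09, adjusted p = 0.00630), and Bysl overlaps it. Ccnd1, encoding cyclin D1, overlapped between groups at 2.82, 2.06 and 4.91 CPM in sensitive and 2.28, 1.76 and 4.97 CPM in resistant cells (log2 fold change -0.16 ± 0.29, adjusted p = 0.826). E2f1, an activator of S phase genes, fell from 13.9, 9.88 and 25.2 to 4.897, 3.15 and 7.17 CPM (log2 fold change -1.66 ± 0.17, adjusted p = 8.08e-04), and E2f2 from 162, 135 and 187 to 93.3, 96.7 and 109 CPM (log2 fold change -0.69 ± 0.09, adjusted p = 0.00318).

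Among inhibitors of cyclin-dependent kinases, Cdkn1a was the one that passed. Cdkn1b, encoding p27, an inhibitor known from resting lymphocytes, was at 279, 269 and 232 CPM in sensitive and 278, 261 and 261 CPM in resistant cells (log2 fold change 0.04 ± 0.08, adjusted p = 0.844). Cdkn2c, encoding p18, gave -0.64 ± 0.20 (adjusted p = 0.119), Cdkn2d 0.08 ± 0.11 (adjusted p = 0.741) and Cdkn1c 0.19 ± 0.42 (adjusted p = 0.859). Cdkn2a and Cdkn2b were at or below about 1 CPM in all 6 libraries and did not pass (adjusted p = 0.714 and 0.528). E2f1, E2f2 and Cdkn1a held with any 1 library left out. Ccnd2 lost its call narrowly (0.0532 without apoptosis-resistant replicate 3) and Ccnd3 as well (0.0702 without apoptosis-resistant replicate 2), while Ccnd2 alone of the 5 passed without the date term (adjusted p = 0.0449).

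Some NF-kB target and feedback genes fell. Of 27 tested, 7 fell (Bcl3, Nfkb2, Nfkbie, Nfkbia, Relb, Ccr7 and Ebi3) and 20 did not pass, 22, 23 and 23 of the 27 pair differences were negative in pairs 1, 2 and 3, and the median was -0.36. Bcl3, an atypical IkB protein, measured 102, 111 and 95.7 CPM in sensitive and 55.7, 52.1 and 57.1 CPM in resistant cells (log2 fold change -0.90 ± 0.13, adjusted p = 0.00342). Nfkb2, the p100 precursor of the noncanonical pathway, fell from 432, 509 and 385 to 277, 282 and 218 CPM (log2 fold change -0.77 ± 0.11, adjusted p = 0.00342), with Psd and a predicted gene overlapping it. The inhibitors Nfkbie and Nfkbia, which NF-kB itself induces, gave -0.64 ± 0.12 (adjusted p = 0.0160) and -0.43 ± 0.08 (adjusted p = 0.0194). Of 14 genes of BAFF receptor signalling, the survival pathway that works through NFKB2 and RELB, 3 fell: Nfkb2, Relb (log2 fold change -0.39 ± 0.08, adjusted p = 0.0295) and Pim2. Over all genes, 1.97% were called lower. Pim2, a survival kinase induced downstream of BAFF, measured 50.8, 40.3 and 56.1 CPM in sensitive and 28.6, 26.1 and 32.0 CPM in resistant cells, without overlap (log2 fold change -0.76 ± 0.10, adjusted p = 0.00224).

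Bcl3, Nfkb2 and Pim2 held with any 1 library left out. The other 5 called genes of both lists lost the call in all 6 fits (highest adjusted p-values of 0.127 to 0.272), and without the date term the 8 had adjusted p-values of 0.100 to 1.0. The immediate early genes, which mark recent stimulation or handling of cells, moved with 1 pair: of 22 tested edgeR called 0 (4 lower at an unadjusted p under 0.05, and 2 by DESeq2, Dusp2 and Ier2). Their median pair differences were -0.19, 0.09 and -1.64, beside -0.69 in the fit of all pairs. Jund, an AP-1 subunit, measured 661, 693 and 3460.2 CPM in sensitive and 619, 609.8 and 1349.8 CPM in resistant libraries, with both replicate 3 libraries above all others (log2 fold change -0.54 ± 0.30, adjusted p = 0.428). Without sensitive replicate 3 the median of the NF-kB list was -0.30. How the NF-kB and immediate early lists relate was not tested.

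**Figure D4:**
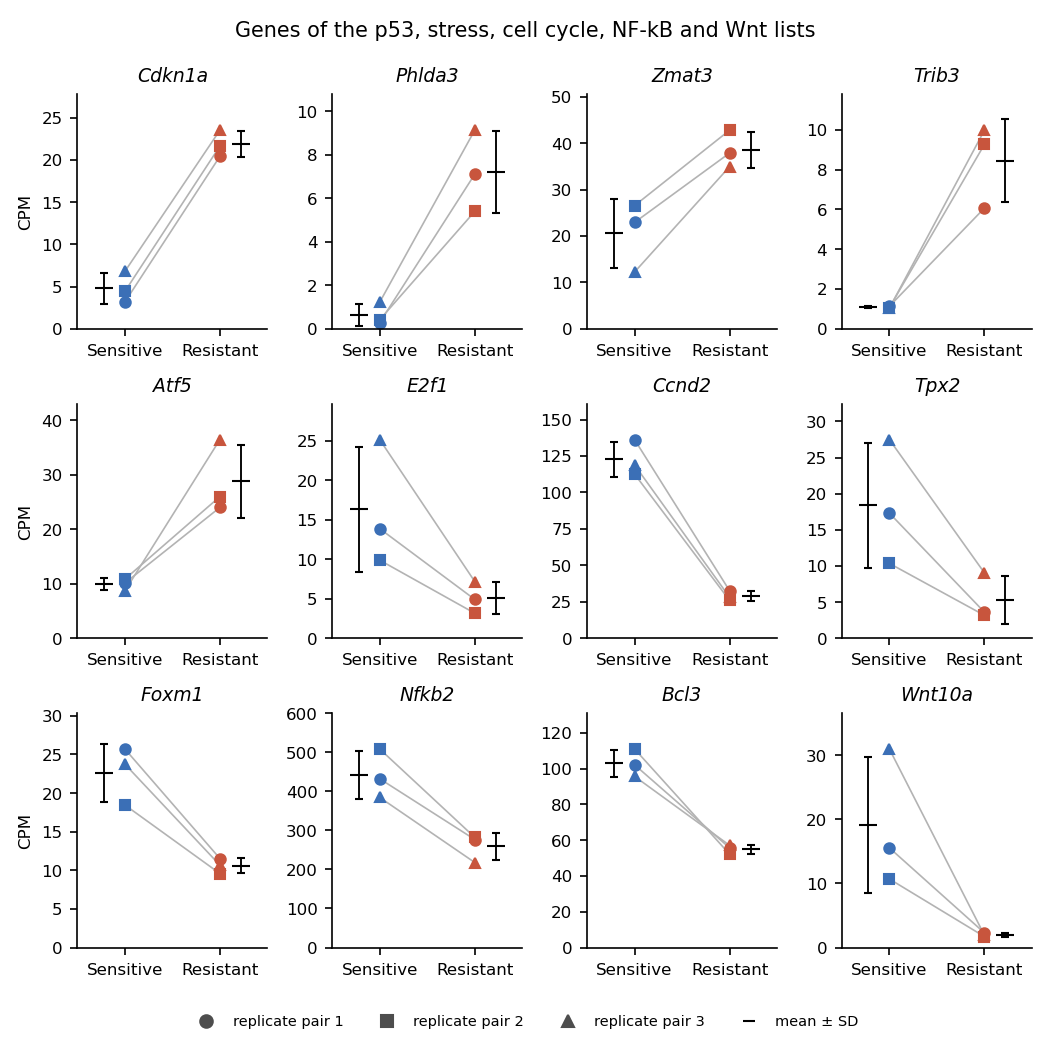
CPM of 12 genes in the 3 sensitive (blue) and 3 resistant (red) libraries, with marker shape for the replicate pair, grey lines joining libraries of 1 collection date and black bars for the mean ± SD. Cdkn1a, Phlda3, Zmat3, Trib3 and Atf5 rise and the other 7 genes fall in all 3 pairs, with Ccnd2 between 25.8 and 32.5 CPM in every resistant library.

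Among genes that mark stages of B cell development, those of immature cells gave the most decreases. Of 14 immature and precursor B cell genes tested, 5 fell (Cecr2, Cd93, Lef1, Myb and Cd24a) and the median was -0.65. Cecr2, a bromodomain chromatin protein, measured 93.1, 76.4 and 82.2 CPM in sensitive and 57.8, 52.8 and 50.5 CPM in resistant cells (log2 fold change -0.64 ± 0.09, adjusted p = 0.00319). Cd93, whose product was the negative gate of the sort, fell from 32.1, 31.3 and 33.2 to 21.1, 16.1 and 16.8 CPM (log2 fold change -0.85 ± 0.14, adjusted p = 0.00851). Myb, a transcription factor of precursors, fell from 62.3, 42.6 and 85.0 to 24.3, 18.1 and 21.5 CPM (log2 fold change -1.53 ± 0.22, adjusted p = 0.0115). Of these 5 Cecr2 held with any 1 library left out, and the other 4 had highest adjusted p-values of 0.0636 to 0.223, while without the date term the range was 0.185 to 1.0. The share of immature cells in each sort was not measured.

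Wnt genes included some of the largest decreases. Of 9 tested on the list, 3 fell (Wnt10a, Wnt10b and Lef1) and 1 rose (Tcf7). Wnt10a, a secreted Wnt ligand (chr1:74792019-74804176), measured 15.6, 10.7 and 31.0 CPM in sensitive and 2.28, 1.70 and 1.91 CPM in resistant cells (log2 fold change -3.18 ± 0.30, adjusted p = 5.26e-04). Its relative Wnt10b fell from 10.2, 5.53 and 21.5 to 1.17, 0.909 and 1.24 CPM (log2 fold change -3.36 ± 0.48, adjusted p = 0.00861). Lef1, a nuclear effector of Wnt signalling and a gene of early B cells, fell from 9.25, 7.35 and 10.1 to 2.21, 3.09 and 3.39 CPM (log2 fold change -1.62 ± 0.28, adjusted p = 0.0101), while the related Tcf7, better known from T cells, rose from 2.03, 2.41 and 1.36 to 5.45, 5.21 and 9.13 CPM (log2 fold change 1.76 ± 0.38, adjusted p = 0.0308). Tcf7 is also on the list of T cell markers, whose values are given with the other markers below. Wnt10a held in every fit with a library left out and passed without the date term (adjusted p = 0.0290). Wnt10b (0.0724 without apoptosis-resistant replicate 1), Lef1 (0.0994 without apoptosis-sensitive replicate 1) and Tcf7 (0.235 without apoptosis-resistant replicate 3) lost their calls.

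Other B cell programmes gave few calls, to be read beside the 3.41% called over all genes. A single call among 24 or 32 genes is near that share and is not a result about the list. Of 16 B lineage transcription factors, Pou2af1 (log2 fold change -0.51 ± 0.11, adjusted p = 0.0293) and Spib (log2 fold change -0.46 ± 0.10, adjusted p = 0.0326) fell. Of 24 genes of B cell receptor signalling, the inhibitory receptor Fcgr2b rose (log2 fold change 0.49 ± 0.12, adjusted p = 0.0444) and the inhibitory Cd72 fell (log2 fold change -0.57 ± 0.09, adjusted p = 0.00798). Of 16 age-associated B cell genes, Cd80 (log2 fold change 1.28 ± 0.28, adjusted p = 0.0308) and Fas (log2 fold change 1.23 ± 0.27, adjusted p = 0.0359) rose and Fcrl5 (log2 fold change -0.55 ± 0.12, adjusted p = 0.0316) and Cd72 fell. Fcrl5 was also the 1 call of 12 B-1 cell genes, Cd80 and Bcl2 the calls of 10 memory genes, and Fas and Basp1 (log2 fold change 2.61 ± 0.56, adjusted p = 0.0450) those of 11 germinal centre genes, of which 10 had values above 0. Ccr7, a receptor that guides B cells to the T zone, was the only call among 16 follicular genes and 17 homing genes (log2 fold change -0.72 ± 0.15, adjusted p = 0.0372). Of 32 interferon-stimulated genes Gbp3 fell, from 70.7, 71.0 and 71.0 to 39.5, 39.2 and 40.9 CPM (log2 fold change -0.83 ± 0.12, adjusted p = 0.00373), of 18 glycolysis genes Ldha fell (log2 fold change -0.49 ± 0.09, adjusted p = 0.0110), and of 24 Myc and ribosome genes Srm fell (log2 fold change -0.63 ± 0.15, adjusted p = 0.0393). Gbp3 held with any 1 library left out, and the other genes first named in this paragraph lost the call in at least 1 fit, with adjusted p-values of up to 0.334 without apoptosis-sensitive replicate 3.

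In 7 further gene lists edgeR called 0 genes. These were Toll-like receptors (17 tested, 2 at an unadjusted p under 0.05, 0 by DESeq2), marginal zone genes (14, with 6 and 3), plasma cell genes (14, with 1 and 0) and immunoglobulin constant regions (12, with 3 and 1). The others were MHC class II presentation (12, with 2 and 1), S100, annexin and galectin genes (17, with 4 and 2) and cholesterol synthesis (16, with 0 and 0). Over all 13592 genes tested, 2363 had an unadjusted p under 0.05, and DESeq2 called 695 (5.11%). Ighm measured 9589.7, 7853 and 8924 CPM in sensitive and 6876, 7045 and 7717 CPM in resistant cells, and Cr2, a complement receptor high on marginal zone cells, 568, 785 and 329 CPM in sensitive and 452, 522 and 236 CPM in resistant cells (log2 fold change -0.46 ± 0.14, adjusted p = 0.0958).

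Most of the largest increases were in genes with few reads in sensitive cells. Tgfa, encoding the growth factor TGF-alpha (chr6:86195038-86275744), had 3, 5 and 7 reads in sensitive replicates 1, 2 and 3, and measured 0.169, 0.294 and 0.327 CPM there against 7.79, 6.30 and 21.98 CPM in resistant ones (log2 fold change 5.39 ± 0.41, adjusted p = 1.99e-04). Plb1, a phospholipase, had 0 reads in the 3 sensitive libraries and 116 reads in the resistant ones, which makes it at least 41.8-fold higher against a floor of 3 counts over the group (adjusted p = 0.0112). Dlg5, a scaffold of cell junctions, rose from 0.113, 0.412 and 0.187 to 3.03, 2.12 and 19.9 CPM, with resistant replicate 3 well above the other 2 (log2 fold change 4.69 ± 0.80, adjusted p = 0.0157). Ret, a receptor tyrosine kinase, rose from 1.02, 0.412 and 0.421 to 5.66, 3.70 and 11.1 CPM (log2 fold change 3.42 ± 0.61, adjusted p = 0.0129). Tnfsf8, the ligand of CD30, rose from 0.395, 0.588 and 0.281 to 3.10, 3.39 and 2.63 CPM (log2 fold change 2.87 ± 0.52, adjusted p = 0.0124), and Soat2, which esterifies cholesterol, from 0.395, 0.176 and 0.281 to 1.24, 2.12 and 3.20 CPM (log2 fold change 2.88 ± 0.62, adjusted p = 0.0293). Inka2, a PAK4 inhibitor, had a log2 fold change of 2.55 ± 0.38 (adjusted p = 0.00450). Cpt1c, a brain-type carnitine palmitoyltransferase, reached 4.57 ± 0.89 (adjusted p = 0.0203), and Arhgap8 reached 3.71 ± 0.82 (adjusted p = 0.0333).

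The groups did not overlap at 14.6% of all genes tested and at 332 of the 463 called. None of the 14 largest increases overlapped between groups, which their choice by size and direction makes likely. With 1 library left out Bbc3, Tgfa and Trib3 held, and the other 11 lost the call in at least 1 fit (highest adjusted p-values of 0.0532 to 0.237, the lowest for Inka2 and the highest for Soat2). Besides Bax, the Wnt genes and division genes such as Pbk (log2 fold change -2.83 ± 0.29, adjusted p = 8.47e-04), Neil3 (log2 fold change -2.72 ± 0.24, adjusted p = 3.02e-04), Kntc1 (log2 fold change -2.46 ± 0.32, adjusted p = 0.00240), Iqgap3, Pimreg, Hrob and Sapcd2, the 14 largest decreases held Trpm5 and a pair of granulocyte genes. Trpm5, a cation channel, fell from 6.88, 5.53 and 12.3 to 0.966, 0.727 and 3.06 CPM (log2 fold change -2.50 ± 0.33, adjusted p = 0.00286) and held with any 1 library left out. Lrg1 and Mmp8, both genes of neutrophil granules, are given with the markers below. A further 20 called genes were immunoglobulin variable segments (2, both higher) or predicted genes and genes without a symbol (10 higher, 8 lower).

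Genes beside Bax were examined because a deletion and the chromosome around it are inherited together. Of 77 tested genes within 1 Mb of the Bax start on chromosome 7, 5 were called, against 3.41% of all genes. Atf5, Cpt1c and Snord35b were higher and Bcat2 and Spib lower. Atf5, Cpt1c and Spib therefore lie near Bax as well as on the lists above. The distance at which mice of the 2 groups differ on this chromosome was not measured.

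Markers of other marrow cells were present at low levels. The summed granulocyte markers, and likewise the summed NK cell markers, were lower in each resistant library than in its partner. The 13 granulocyte markers summed to 833, 89.6 and 152 CPM in sensitive replicates 1, 2 and 3 and 79.4, 33.9 and 75.2 CPM in resistant ones, with 116, 32.0 and 876 CPM in young wild type. Their median log2 fold change was -1.96, all 13 values were below 0 and none of the 13 was at 0 in every library, yet 1 was called. This was Mmp8, a neutrophil collagenase, at 12.2, 2.53 and 2.20 CPM in sensitive and 1.38, 0.242 and 0.526 CPM in resistant cells (log2 fold change -2.83 ± 0.33, adjusted p = 0.00148). Lrg1 fell from 5.47, 0.470 and 0.748 to 0.345, 0 and 0.191 CPM (log2 fold change -3.32 ± 0.66, adjusted p = 0.0199), a call that was lost without sensitive replicate 1 (adjusted p = 0.266). The S100a8 level was 76.8, 7.88 and 17.7 CPM in sensitive and 8.62, 4.00 and 11.9 CPM in resistant cells (log2 fold change -1.60 ± 0.92, adjusted p = 0.475).

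For the other cell types, erythroid markers summed to 374, 71.6 and 175 CPM in sensitive and 164.1, 98.5 and 108 CPM in resistant libraries. EdgeR called 0 of 10 (8 at an unadjusted p under 0.05, 7 lower and 1 higher, and 6 by DESeq2). Over all 13592 genes tested, 2363 had an unadjusted p under 0.05, and DESeq2 called 5.11%. Of the 10 erythroid values 9 were below 0 and 1 above, with a median log2 fold change of -1.46. Monocyte markers summed to 141, 45.1 and 57.7 CPM in sensitive and 54.1, 56.0 and 72.9 CPM in resistant libraries, with 1 of 10 called: Csf1r, at 2.09, 1.71 and 1.92 CPM in sensitive and 4.897, 5.76 and 6.21 CPM in resistant cells (log2 fold change 1.56 ± 0.30, adjusted p = 0.0165; 0.123 without apoptosis-resistant replicate 3). Of 12 T cell markers Tcf7 was called, 9 values were above 0, the median was 0.21 (pair medians -0.13, -0.17 and 0.70), and their sums were 188, 172 and 240.5 CPM in sensitive and 169.9, 167 and 199.6 CPM in resistant libraries. NK cell markers (5 tested), megakaryocyte markers (3), plasmacytoid dendritic cell markers (6) and marrow stroma markers (9) gave 0 calls in edgeR, with 1, 0, 2 and 1 at an unadjusted p under 0.05 and 1, 0, 0 and 0 by DESeq2. All 5 NK cell values were below 0, with a median log2 fold change of -1.58. Their sums were small, at 5.75, 5.88 and 5.56 CPM in sensitive and 2.76, 2.30 and 4.44 CPM in resistant libraries. The part of these cells in the results above was not tested.

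**Figure D5:**
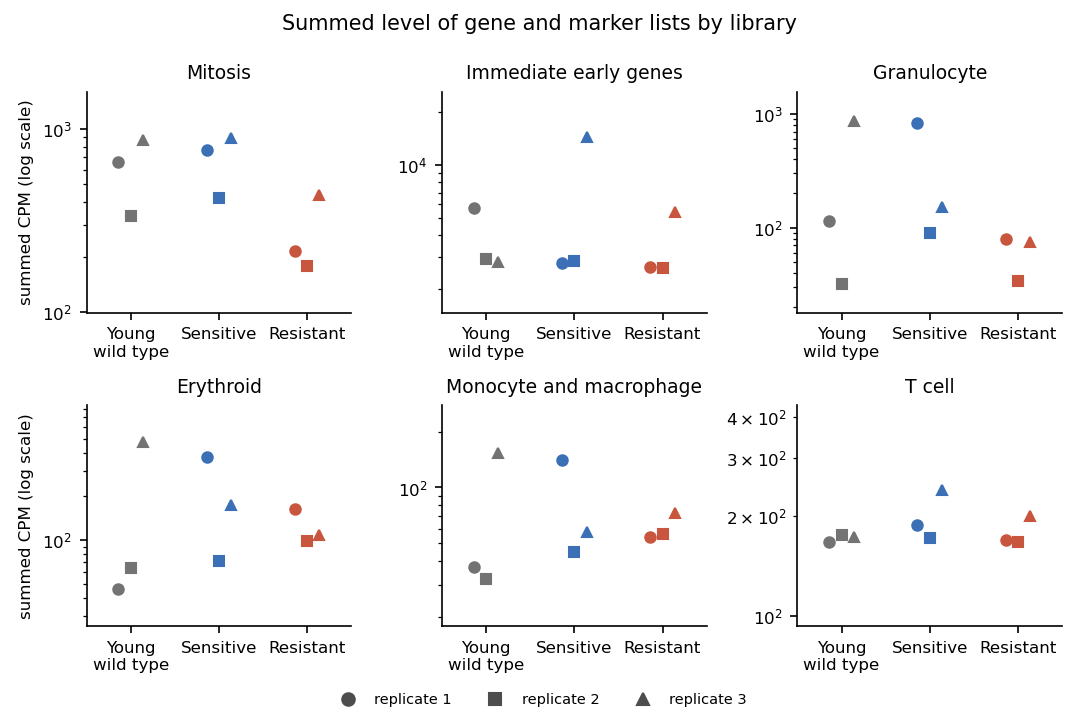
Summed CPM, on log axes, of the mitosis list, the immediate early list and 4 marker lists in 3 young wild-type (grey), 3 sensitive (blue) and 3 resistant (red) libraries, with marker shape for the replicate. The mitosis sum is lower in each resistant library than in its sensitive partner, sensitive replicate 3 has the highest immediate early sum, and sensitive replicate 1 and young wild-type replicate 3 have the highest granulocyte and erythroid sums among the 9 libraries plotted.

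The contrast between old (98 to 100 weeks) and young (9 to 11 weeks) wild-type cells of the same sort gave another comparison, which shares no library with the first. Age called 2028 genes (14.9%), of which 1073 were higher (7.89%) and 955 lower (7.03%) in old cells. By the test of the difference itself, the genotype effect differed from the age effect at 955 genes (7.03%), 478 above it (3.52%) and 477 below it (3.51%). Both comparisons called 142 genes, which are 30.7% of the genotype calls and 7.00% of the age calls, and 102 of the 142 had the same direction (48 higher and 54 lower in both). The other 40 moved in opposite directions. The difference passed the test at all 40, which choosing genes called in both with opposite signs nearly requires.

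The BH3-only genes were among those that parted. Bmf rose with Bax deletion and fell with age, from 49.1, 91.9 and 96.7 CPM in young to 10.9, 25.1 and 21.4 CPM in old cells (age log2 fold change -2.07 ± 0.09, adjusted p = 8.35e-07), a difference of 3.54 ± 0.13 between the effects (adjusted p = 1.28e-07). Bcl2l11 fell with age as well (age log2 fold change -0.72 ± 0.15; difference 2.02 ± 0.21, adjusted p = 8.54e-04). Bbc3 rose in both, but by more with Bax deletion (age log2 fold change 0.82 ± 0.20; difference 1.67 ± 0.27, adjusted p = 0.00610). Bcl2 had an age log2 fold change of 0.38 ± 0.13 that did not pass (adjusted p = 0.0697), and its effects differed by -1.29 ± 0.18 (adjusted p = 0.00309). Fcrl5, an Fc receptor-like gene of B-1 and age-associated cells, fell with Bax deletion and rose with age (age log2 fold change 1.83 ± 0.12; difference -2.38 ± 0.17, adjusted p = 4.56e-05).

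Most mitosis genes were called with the genotype and few with age. Of the 29 mitosis genes, 4 fell with age, and the genotype effect was below the age effect at 13 by the test of the difference, Tpx2 among them (-1.72 ± 0.29, adjusted p = 0.00689). The effects on Cdkn1a differed by 2.14 ± 0.42 (adjusted p = 0.0149), on Trib3 by 2.98 ± 0.46 (adjusted p = 0.00468) and on Ccnd2 by -1.96 ± 0.30 (adjusted p = 0.0142), and none of these 3 passed with age alone (adjusted p = 0.868, 0.968 and 0.727). Other genes fell in both comparisons. Wnt10a fell with age from 12.6, 10.6 and 15.04 to 0.979, 1.64 and 2.26 CPM (age log2 fold change -3.00 ± 0.30, adjusted p = 1.87e-04), and its genotype effect differed from this by -0.19 ± 0.42 (adjusted p = 0.839). Wnt10b (-3.56 ± 0.47), Lef1 (-1.89 ± 0.29), Myb (-2.02 ± 0.23) and Ccnd3 (-0.52 ± 0.09) also fell with age, and none of the 4 passed the test of the difference, which does not show that the effects are equal. Foxm1 fell with both (-0.97 ± 0.13 with age; difference -0.12 ± 0.18, adjusted p = 0.754). The difference was called at 34 genes without the date term and at 237 to 608 with a library of the genotype comparison left out, so these counts also move with the date term and with single libraries.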

How the data were processed

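Poly(A) RNA of mature B cells sorted from bone marrow was sequenced (TruSeq RNA v2, per the labels' protocols). The authors deposited 1 table of raw read counts per Entrez gene (27179 genes, 12 libraries), made with featureCounts of Subread on mm10, per the submitters' processing notes; versions, annotation and strand setting are not given in the sources used here. Symbols and coordinates came from RefSeq (GRCm38.p6; 25275 genes matched), as did the promoter sequences (10147 of the 13592 tested genes had an entry).

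Counts of all 12 libraries, with at least 10 reads by filterByExpr, were fitted in edgeR 4.0.16 (R 4.3.3): TMM factors, robust quasi-likelihood F test, terms for collection date, genotype and age (4 residual degrees of freedom), Benjamini-Hochberg adjustment over 13592 genes. CPM use TMM-scaled library sizes. Pair differences use log2 CPM with a prior count of 2. The labels give same-numbered replicates 1 shared collection date. Their deviations from group means correlated at 0.284, 0.325 and 0.487 across genes, higher than with any other number. Replicates are biological per the series' design, and totals of 14785100 to 20760533 reads limit genes of a few reads. Alternatives were no date term, the 6 libraries alone, DESeq2 1.42.0, RLE factors, other filters, no immunoglobulin genes, no robust moderation and each library left out. The code was tested on simulated data.

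Members and lists were chosen with earlier results of these data known. Genes named are Bax and Bak1, the 14 largest increases and 14 largest decreases among genes called with a mean of at least 1 CPM and 1 direction in 3 pairs, genes passing without the date term, up to 4 called members per list by adjusted p (otherwise up to 2 by level), and all BCL-2 family, cyclin D and CDK inhibitor genes tested. Others are named as list members or for a printed promoter, after their values were seen.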

Additional observations from a re-analysis of the deposited data

How the results depend on the processing

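The count of 463 genes called (195 higher, 268 lower) was 6 (3 and 3) without the replicate block of collection dates, 816 (384 and 432) with only the 6 Bak1-deficient libraries and the block, 5 (3 and 2) with those 6 libraries and no block, and 695 with DESeq2 (338 higher). Leaving out each library in turn gave 130 to 175 genes (35 to 60 higher, 86 to 115 lower), which rests on 2 pairs. The count with RLE factors was 472, with no filter 607, with a mean of at least 1 CPM 462, without immunoglobulin genes 475 and without robust moderation 431. The share of calls that were higher was 42.1%, 43.2% with RLE factors, 48.6% with DESeq2, 50% without the block and 60% with the 6 libraries and no block, and 24.5% to 34.8% with 1 library left out. The difference from age, 955 genes, was 34 without the block and 237 to 608 with a library left out. The log2 fold change of Bax lay between -3.53 and -3.29 and passed in all alternatives run, and no named gene reversed its direction with a call. Of the 117 named genes, 75 lost a call without the block and 35 to 45 with a given library left out, while RLE factors changed no call. Depth limits genes of few reads: Plb1 and Emp2 had 0 reads in all 3 sensitive libraries, and their folds are lower bounds.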
